A study of Mus musculus with 31 samples.

Results

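Ccn1, Ccn2, Ankrd1 and Amotl2, which respond to the transcriptional co-activator YAP, and Skil, Smad7 and Tgfbi, which respond to transforming growth factor beta (TGF-β), were followed together with the ligand genes Tgfb1 and Tgfb2 across the sites of a transplanted mouse mesothelioma. The 9 genes were chosen by name as members of these pathways, with earlier results of these data known. All 9 were among the 54456 entries of the whole tumour table. The sorted cell table, of 12461 entries, listed 8 of the 9 and had no line for Tgfb2.

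The tumours were grown from AB1-mCherry, a murine mesothelioma line carrying a red fluorescent protein, sorted for its brightest cells before use, and were taken at day 10 from female BALB/c mice aged 12 weeks that had received no treatment. Whole tumours came from the pleural space (6 mice), the peritoneal space (5 mice) and the subcutaneous site (5 mice). Sorted cells, gated as CD45- mCherry+ so as to keep cancer cells and leave out leukocytes, came from 5 pleural, 5 peritoneal and 5 subcutaneous tumours. All groups rest on the same transplanted line, and the mouse names differ between sites. Within a site most mouse names appear for both a whole tumour and a sorted library. The whole tumours and sorted cells are therefore not separate sets of animals.

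YAP and its relative TAZ are held in the cytoplasm by the Hippo kinases and enter the nucleus when cells are spread, stretched or freed of contact, where they drive genes through TEAD proteins. Mesothelioma is known for frequent loss of Hippo components such as NF2 and LATS2. TGF-β is secreted in a latent form, is activated by integrins and proteases, and signals through a receptor pair to SMAD proteins, and it is made by mesothelioma cells, fibroblasts and macrophages alike. The pathways meet at several promoters: Ccn2 is a classical target of both, and Skil and Smad7 are switched on by TGF-β to restrain it.

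Of the 9 genes, 6 had an entry in the promoter table from RefSeq (GRCm38.p6), which covers 250 bases before and 50 bases from the transcription start. The search on both strands was for the TEAD element CATTCC (or GGAATG), the SMAD element CAGAC (or GTCTG), the SMAD palindrome GTCTAGAC and the AP-1 element TGACTCA (or TGAGTCA). The TEAD element lay in the promoters of 3 of the 6 genes, and 14.7% of all 32851 promoters of this length held it. These promoters, all of YAP response genes, are shown because their genes did not share one site pattern in the results that follow, and capitals mark the TEAD element.
Ccn1, chr3:145649936-145650235, minus strand: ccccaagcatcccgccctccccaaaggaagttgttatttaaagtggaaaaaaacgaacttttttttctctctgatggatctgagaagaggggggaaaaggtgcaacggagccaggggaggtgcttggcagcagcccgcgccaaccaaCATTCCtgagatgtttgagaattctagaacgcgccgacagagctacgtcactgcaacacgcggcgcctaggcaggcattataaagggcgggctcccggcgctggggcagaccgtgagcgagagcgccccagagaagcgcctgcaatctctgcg
Amotl2, chr9:102717554-102717853, plus strand: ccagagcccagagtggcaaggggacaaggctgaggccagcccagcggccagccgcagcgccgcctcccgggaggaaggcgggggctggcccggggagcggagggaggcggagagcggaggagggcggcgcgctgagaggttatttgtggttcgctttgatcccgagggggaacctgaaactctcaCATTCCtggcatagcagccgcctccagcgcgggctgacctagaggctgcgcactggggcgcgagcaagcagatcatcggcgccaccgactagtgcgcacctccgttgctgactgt
Ankrd1, chr19:36119795-36120094, minus strand: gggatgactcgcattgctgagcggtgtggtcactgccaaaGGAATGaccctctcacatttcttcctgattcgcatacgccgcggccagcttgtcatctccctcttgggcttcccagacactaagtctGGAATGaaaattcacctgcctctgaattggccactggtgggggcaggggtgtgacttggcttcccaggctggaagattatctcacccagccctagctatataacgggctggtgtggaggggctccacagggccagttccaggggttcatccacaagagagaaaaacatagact
The element began at -103 in Ccn1, at -65 in Amotl2 and at -210 and -123 in Ankrd1, counted from the transcription start. The short SMAD element was present in 4 of the 6 promoters, those of Tgfb2, Ccn1, Tgfbi and Ankrd1, and in 49.6% of all promoters. The palindrome was found in 0 of the 6 (0.213% of all promoters), and the AP-1 element in 0 of the 6 (5.2% of all promoters). The files' values were made on GRCm39, so the coordinates belong to the promoter table alone.

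Several libraries stood apart. Pleural whole tumour 3 held 6006 TPM (a length-scaled share of the transcripts of its library) summed over 8 heart muscle markers, against 4.02 to 32.8 TPM in the other whole tumours. Skeletal muscle markers summed to 11.5 to 817 TPM in pleural and 14.7 to 17.4 TPM in peritoneal tumours, against 81.0 to 1468 TPM in subcutaneous tumours. Sorted subcutaneous libraries 1 and 2 carried 431 and 316 TPM of 8 pan-leukocyte markers, against 24.3 to 85.5 TPM in the other 13 sorted libraries. Sorted peritoneal libraries 2 and 5 were the lowest of all 15 for the members Skil and Amotl2, and leaving them out was chosen after these values were seen. Of 8 mesothelial markers, Msln, Krt8 and Gata6 were listed in the sorted table and Wt1, Upk3b, Lrrn4, Krt19 and Aldh1a2 were not; the 3 listed summed to 163 to 321 TPM in pleural, 241 to 333 TPM in peritoneal and 177 to 248 TPM in subcutaneous libraries. Calls are from limma on log2(TPM + 1) with Benjamini-Hochberg adjustment over 15054 tested genes in whole tumours and 12357 in sorted cells, and a call means an adjusted p below 0.05. Differences are log2 fold changes on that scale with their standard error (SE), which understate the change of low genes.

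Tgfb1, which encodes the most widely expressed TGF-β ligand, was lower at both serosal sites than under the skin in whole tumours. In whole pleural tumours its level ran from 57.5 TPM through a median of 59.7 to 77.5 TPM. Whole peritoneal tumours had 62.8, 61.9, 57.4, 56.4 and 72.6 TPM, against 71.2, 79.3, 86.7, 80.0 and 81.5 TPM in subcutaneous tumours. In each serosal group the highest tumour alone reached into the subcutaneous range. The difference was -0.35 (SE 0.08, adjusted p = 0.0127) for pleural against subcutaneous tumours and -0.36 (SE 0.08, adjusted p = 0.0148) for peritoneal against subcutaneous tumours, comparisons that share the subcutaneous libraries. Pleural and peritoneal tumours differed by 0.00 (95% interval -0.16 to 0.17).

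In sorted cells Tgfb1 again stood highest in the subcutaneous group. The pleural libraries had 35.7, 34.0, 28.3, 36.3 and 33.2 TPM, the peritoneal libraries 29.3, 24.0, 32.6, 29.7 and 30.0 TPM, and the subcutaneous libraries 42.1, 44.5, 40.7, 38.5 and 41.7 TPM. Neither serosal group overlapped the subcutaneous one. The peritoneal decrease passed the test at -0.50 (SE 0.09, adjusted p = 0.00292), and the pleural difference of -0.30 (SE 0.09, adjusted p = 0.129) did not. The peritoneal call held in all 11 alternative settings and in all 15 fits with 1 library left out.

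Macrophages also make Tgfb1, and their markers were lower in whole peritoneal than in subcutaneous tumours, with 5 of 8 called (median -0.72). In pleural against subcutaneous tumours 2 of 8 were called lower (median -0.22). The share of all tested genes called lower was 3.64% for peritoneal and 3.4% for pleural tumours. The sum of 8 macrophage markers, all of them detected, was 2609 to 5353 TPM in pleural and 2227 to 3815 TPM in peritoneal tumours, against 3306 to 4892 TPM in subcutaneous tumours. In bulk tumours fewer cells of a type and less RNA per cell cannot be told apart, and the part of these markers in the result was not tested. In sorted cells the peritoneal decrease in Tgfb1 was present without subcutaneous libraries 1 and 2. Endothelial markers, 5 of 8 listed, were also lower in sorted peritoneal cells, with 4 of the 5 called. They summed to 3.25 to 11.5 TPM there, against 18.4 to 32.0 TPM in subcutaneous cells. The share of all tested genes called lower in that comparison was 6.33%. The 3 genes most like Tgfb1 in sorted cells were Arl6ip5, the endothelial gene Emcn and Zfp703 (Pearson r of 0.94, 0.93 and 0.93 over 15 libraries). After each site's mean was taken out, r was 0.90, 0.71 and 0.76. The part of endothelial cells in the sorted Tgfb1 result was not tested.

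Tgfb2, a second ligand that mesothelial cells can secrete, was near the detection filter. It ranged from 0.323 to 2.48 TPM with a median of 0.909 TPM in pleural tumours, was 1.24, 1.41, 2.23, 0.805 and 0.928 TPM in peritoneal tumours, and was 0.403, 1.21, 0.367, 0.499 and 0.387 TPM in subcutaneous tumours. Subcutaneous tumour 2 alone exceeded 1 TPM in its group. No comparison passed the test, and the largest difference was 0.56 (SE 0.23, adjusted p = 0.117) for peritoneal against subcutaneous tumours. Mesothelial markers, all 8 of them detected in whole tumours, were higher at both serosal sites than under the skin, with 5 of 8 called in pleural (median 0.98) and 7 of 8 in peritoneal tumours (median 1.54). They summed to 199.9 to 319.9 TPM in pleural and 231 to 299 TPM in peritoneal tumours, against 197 to 249 TPM in subcutaneous tumours. The share of all tested genes called higher was 9.4% for pleural and 8.52% for peritoneal tumours. The part of the mesothelial markers in the values of Tgfb2 and in the pleural rise of Ccn2 in whole tumours was not tested. Nor was their part in the whole tumour rises of Smad3, Tgfb3 and Yap1 at both serosal sites.

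**Figure D1:**
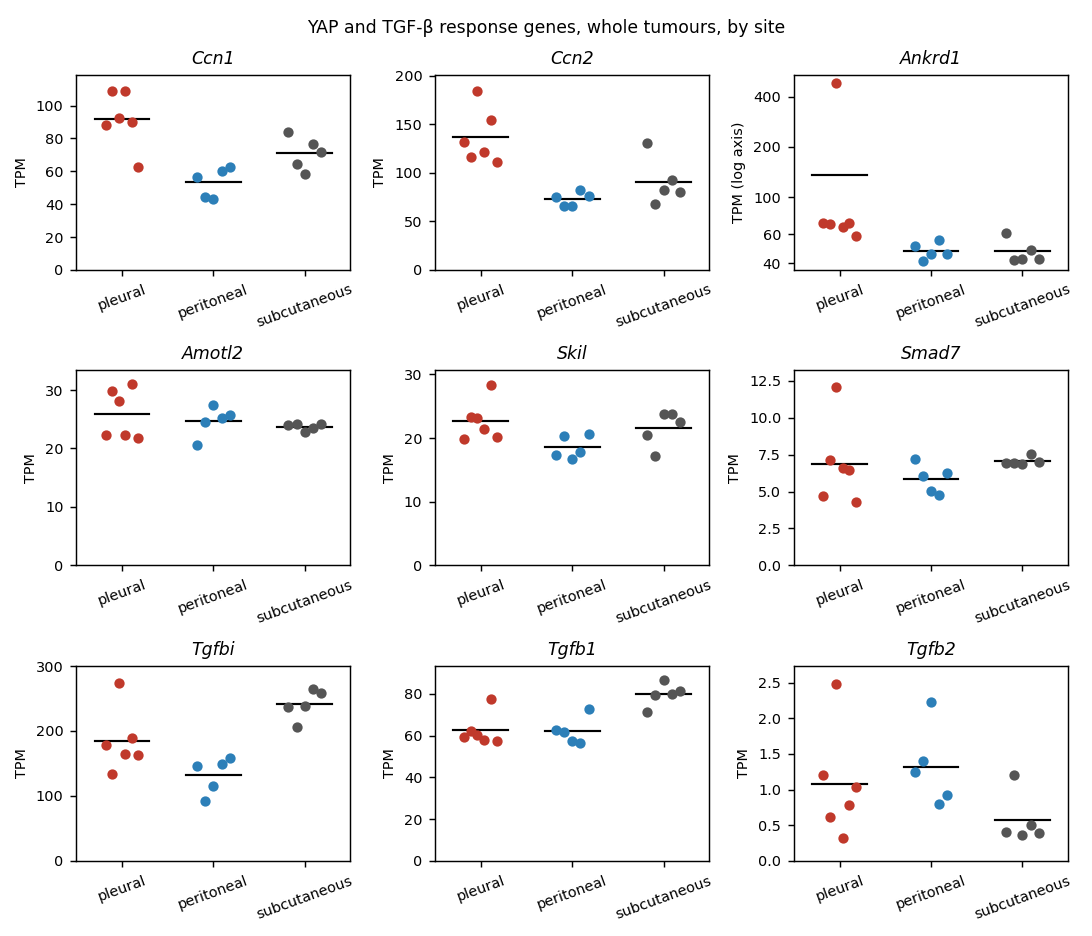
TPM of the 9 genes in each whole tumour (points) by site, with the mean of each group as a line; axes start at 0 except that of Ankrd1, which is logarithmic. Tgfb1 and Tgfbi stood highest in subcutaneous tumours, Ccn1 and Ccn2 in pleural ones, and 1 pleural tumour reached 479.6 TPM of Ankrd1.

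Skil and Smad7, the feedback genes of TGF-β signalling, were lower by about 1.7 log2 units in sorted peritoneal cells than in sorted cells of either other site. Skil encodes SnoN, a co-repressor that binds SMADs. Sorted pleural libraries had 38.1, 30.3, 42.8, 66.9 and 29.2 TPM of Skil, peritoneal libraries 16.9, 5.78, 21.5, 13.8 and 5.46 TPM, and subcutaneous libraries 43.7, 19.9, 45.7, 44.5 and 50.7 TPM. Every pleural library exceeded every peritoneal one, and subcutaneous library 2 was the only one of its group inside the peritoneal range. The decrease in peritoneal against subcutaneous cells was -1.73 (SE 0.35, adjusted p = 0.00652), and pleural cells exceeded peritoneal cells by 1.74 (SE 0.35, adjusted p = 0.0103).

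Smad7 encodes the inhibitory SMAD that brings ubiquitin ligases to the receptor. It was at 25.8, 15.2, 19.8, 20.9 and 11.1 TPM in sorted pleural libraries, at 5.33, 2.55, 12.7, 3.90 and 3.21 TPM in peritoneal libraries and at 15.7, 9.08, 19.2, 25.5 and 30.3 TPM in subcutaneous libraries. Peritoneal library 3 was the exception in its group and lay within the range of both other sites. The difference was -1.76 (SE 0.36, adjusted p = 0.00605) for peritoneal against subcutaneous cells and 1.71 (SE 0.36, adjusted p = 0.0110) for pleural against peritoneal cells.

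Pleural and subcutaneous sorted cells were close in both genes. The difference was 0.02 for Skil (95% interval -0.73 to 0.77) and -0.05 for Smad7 (95% interval -0.80 to 0.71).

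Without peritoneal libraries 2 and 5, a choice made after their values were seen, Skil was still called at -1.15 against subcutaneous cells (adjusted p = 0.0370) and at 1.16 in pleural against peritoneal cells (adjusted p = 0.0466). Under the same choice Smad7 was called at -1.37 against subcutaneous cells (adjusted p = 0.0492) but not in pleural against peritoneal cells, where it stood at 1.33 (adjusted p = 0.0657).

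In whole tumours both feedback genes again had their lowest mean in peritoneal tumours, by smaller differences that did not pass the test. Skil ran from 19.9 to 28.4 TPM in pleural tumours, with a median of 22.2 TPM, from 16.7 to 20.7 TPM in peritoneal tumours and from 17.2 to 23.8 TPM in subcutaneous tumours. The peritoneal difference against subcutaneous tumours was -0.20 (95% interval -0.42 to 0.02, adjusted p = 0.198). Smad7 lay between 4.30 and 12.1 TPM in pleural, 4.77 and 7.24 TPM in peritoneal and 6.88 and 7.57 TPM in subcutaneous tumours, with a peritoneal difference of -0.24 (95% interval -0.63 to 0.15, adjusted p = 0.393). Pleural tumours exceeded peritoneal ones by 0.27 in Skil (95% interval 0.06 to 0.48, adjusted p = 0.329) and by 0.14 in Smad7 (95% interval -0.23 to 0.52, adjusted p = 0.789). Without pleural tumour 3, which held 12.1 TPM of Smad7 and the high heart markers, the Smad7 difference was -0.018 (adjusted p = 0.965). The tables were normalized separately, so whole tumours and sorted cells were not tested against each other.

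Tgfbi encodes a secreted matrix protein induced by TGF-β and made in quantity by macrophages and fibroblasts. In whole tumours it ran from 133 to 275 TPM in pleural tumours, with a median of 172 TPM. Peritoneal tumours had 147, 92.4, 116, 149.8 and 158 TPM, against 236, 207, 239, 265 and 258 TPM in subcutaneous tumours. Peritoneal and subcutaneous tumours did not overlap, and the decrease was -0.88 (SE 0.17, adjusted p = 0.00519), called in all 10 alternative settings and all 16 fits with 1 library left out. Pleural against subcutaneous tumours gave -0.42 (SE 0.16, adjusted p = 0.0912), and without pleural tumour 3, the highest of its group, -0.54 (adjusted p = 0.0171). Macrophage markers were lower in peritoneal tumours as well, with 5 of 8 called lower against subcutaneous tumours and a median of -0.72. Their part in the Tgfbi result was not tested. The share of all tested genes called lower in that comparison was 3.64%.

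In sorted cells the subcutaneous values of Tgfbi split with the leukocyte markers. Pleural libraries had 11.4, 13.8, 9.28, 17.0 and 15.1 TPM, peritoneal libraries 19.5, 23.2, 22.2, 21.0 and 16.4 TPM, and subcutaneous libraries 113, 87.4, 16.0, 26.6 and 22.7 TPM. Subcutaneous libraries 1 and 2, the ones with 431 and 316 TPM of leukocyte markers, held the 2 high values. The other 3 averaged 21.8 ± 5.32 TPM (SD), beside a peritoneal mean of 20.5 ± 2.67 TPM (SD, n = 5). No sorted comparison of Tgfbi passed the test in the fit of all 3 sites. The pleural against peritoneal difference of -0.60 (adjusted p = 0.350) was called in the fit of those sites alone (adjusted p = 0.0483) and without subcutaneous libraries 1 and 2 (adjusted p = 0.0397).

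**Figure D2:**
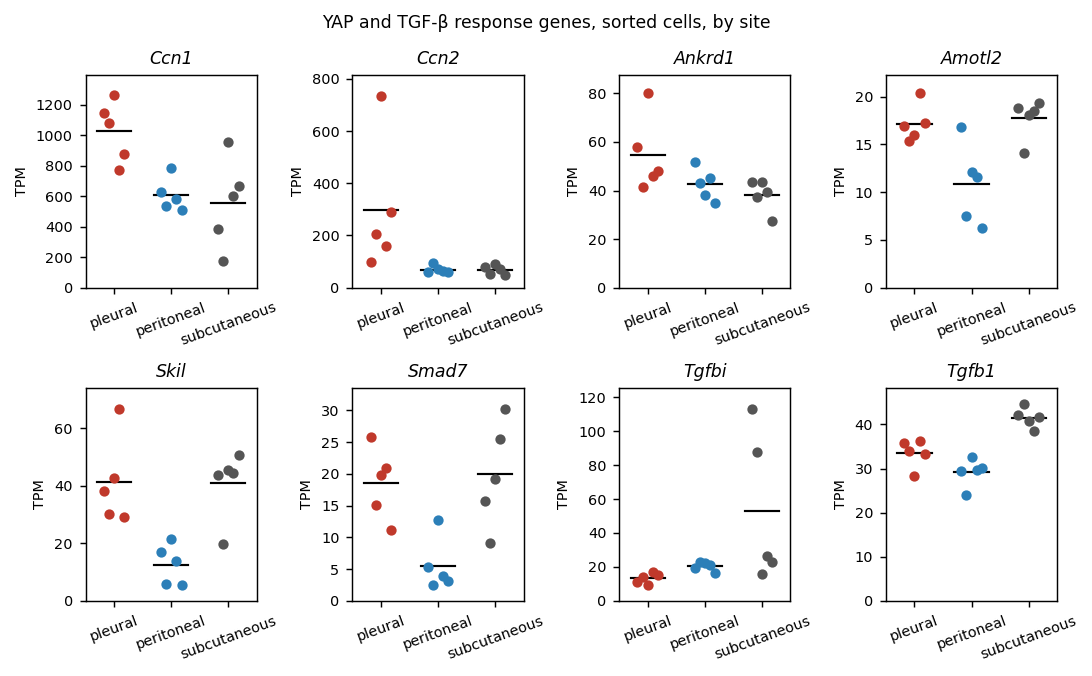
TPM of the 8 listed genes in each sorted library (points) by site on axes that start at 0, with the mean of each group as a line. Skil, Smad7 and Amotl2 had their lowest means in peritoneal cells, Ccn2 its highest in pleural cells, and 2 subcutaneous libraries, at 113 and 87.4 TPM, stood above all others for Tgfbi.

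Ccn1 and Ccn2 encode secreted matricellular proteins, formerly called Cyr61 and Ctgf, that bind integrins and promote adhesion and matrix deposition. Both had their highest mean in pleural material in either table. In whole tumours Ccn2 ran from 112 to 184 TPM in pleural tumours, with a median of 127 TPM. Peritoneal tumours had 74.8, 66.0, 65.7, 82.3 and 76.6 TPM and subcutaneous tumours 130.2, 68.3, 82.8, 92.2 and 80.6 TPM. All pleural tumours exceeded all peritoneal ones, and subcutaneous tumour 1 alone of its group reached the pleural range.

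The rise of Ccn2 in pleural against subcutaneous tumours was 0.59 (SE 0.15, adjusted p = 0.0196), called in all 10 alternative settings and lost only without subcutaneous tumour 2 (adjusted p = 0.0632). Pleural against peritoneal tumours gave 0.88 (SE 0.15, adjusted p = 0.0455). That call held in 2 of 10 alternative settings, quantile normalization and the fit of those sites alone. It held in 4 of 16 fits with 1 library left out, those without pleural 3, pleural 7, subcutaneous 1 or subcutaneous 2. Over all of these the adjusted p ran up to 0.213 while the difference stayed between 0.71 and 0.93.

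In sorted cells the pleural libraries had 99.4, 207, 736, 161 and 289 TPM of Ccn2, the peritoneal libraries 61.4, 92.5, 71.9, 62.6 and 58.1 TPM, and the subcutaneous libraries 77.6, 50.9, 92.3, 71.7 and 48.1 TPM. The lowest pleural library stood above every library of the other sites, and pleural library 3 was far above its group. Without it the pleural mean was 189 ± 79.7 TPM (SD, n = 4). Ccn2 was 1.76 higher in pleural than in peritoneal cells (SE 0.38, adjusted p = 0.0128), a call kept in all 11 alternative settings and all 15 fits with 1 library left out. Against subcutaneous cells it was 1.81 higher (SE 0.38, adjusted p = 0.0204). That call was lost when only those sites entered the fit, without subcutaneous libraries 1 and 2 (adjusted p = 0.177), and in 3 fits with 1 library left out, those without pleural 5, subcutaneous 2 or subcutaneous 5 (adjusted p up to 0.0711). Peritoneal and subcutaneous cells differed by 0.05 (95% interval -0.76 to 0.86).

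Ccn1 followed the same order of means in whole tumours without passing the test. It ran from 62.8 to 109 TPM in pleural tumours, with a median of 91.1 TPM, was 56.3, 44.3, 43.1, 60.4 and 62.5 TPM in peritoneal tumours and 83.8, 64.3, 58.2, 76.5 and 71.6 TPM in subcutaneous tumours. Pleural and peritoneal tumours did not overlap, by a margin of 62.8 against 62.5 TPM. The differences were 0.36 (SE 0.14, adjusted p = 0.0993) for pleural against subcutaneous, -0.41 (SE 0.15, adjusted p = 0.0766) for peritoneal against subcutaneous and 0.77 (SE 0.14, adjusted p = 0.0813) for pleural against peritoneal tumours. Each of the 3 was called in the fit without pleural tumour 7, the lowest of the pleural group, with an adjusted p of 0.0267 for pleural against subcutaneous, 0.0395 for peritoneal against subcutaneous and 0.0212 for pleural against peritoneal tumours.

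In sorted cells Ccn1 was among the more abundant members, at 1146, 1077, 1265, 774 and 878 TPM in pleural libraries, 628, 534, 786, 582 and 507 TPM in peritoneal libraries and 385, 174, 959, 604 and 666 TPM in subcutaneous libraries. Subcutaneous libraries 1 and 2, those with high leukocyte markers, were the lowest of all 15. Pleural cells exceeded subcutaneous cells by 1.07 (SE 0.33, adjusted p = 0.148) and peritoneal cells by 0.75 (SE 0.33, adjusted p = 0.143), neither of them called. Without subcutaneous libraries 1 and 2, the pleural difference against subcutaneous cells was 0.48 (adjusted p = 0.582), and without library 2 alone it was 0.70 (adjusted p = 0.226). Without both, the pleural difference against peritoneal cells was called (adjusted p = 0.0145), and the peritoneal difference against subcutaneous cells turned to -0.28 (adjusted p = 0.381), against 0.32 with all libraries.

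Ankrd1 encodes a nuclear and sarcomeric ankyrin repeat protein that is a standard YAP readout and is also abundant in heart muscle. Pleural tumour 3 held 479.6 TPM of it and 6006 TPM of heart markers, while the other 5 pleural tumours lay between 58.6 and 69.5 TPM of Ankrd1 and 4.69 and 7.04 TPM of heart markers. Peritoneal tumours had 50.7, 41.4, 45.8, 55.0 and 45.8 TPM and subcutaneous tumours 60.7, 42.1, 42.7, 48.2 and 42.3 TPM. With tumour 3 the pleural mean was 135 ± 169 TPM (SD, n = 6) and the difference of 0.97 against subcutaneous tumours was not called (SE 0.41, adjusted p = 0.118). Without it the pleural mean was 66.6 ± 4.61 TPM (SD, n = 5) and the difference of 0.50 was called (adjusted p = 0.00599). Pleural against peritoneal tumours gave 0.95 (SE 0.41, adjusted p = 0.399). That difference was called in 0 of 10 alternative settings and 0 of 16 fits with 1 library left out. Over the 16 whole tumours the genes most like Ankrd1 were Atp2a2, Cpt1b and Tnni3, all of cardiac muscle metabolism or contraction, with Pearson r from 0.93 to 0.97 on log2(TPM + 1), values that rest on that tumour as an extreme point.

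**Figure D3:**
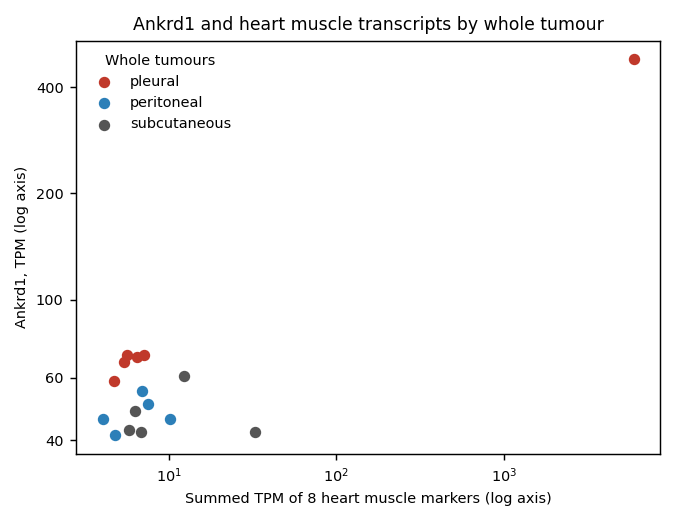
Ankrd1 in TPM against the summed TPM of 8 heart muscle markers in each whole tumour, both on log axes, coloured by site. Pleural tumour 3, at 479.6 TPM of Ankrd1 and 6006 TPM of heart markers, stands apart, and the other 5 pleural tumours lie at 58.6 to 69.5 TPM of Ankrd1.

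In sorted cells, where 1 of the 8 heart markers was listed and summed to at most 1.65 TPM, Ankrd1 was at 58.1, 41.6, 80.2, 45.9 and 48.0 TPM in pleural libraries, 51.8, 43.1, 38.3, 45.3 and 34.9 TPM in peritoneal libraries and 43.6, 37.2, 43.7, 39.4 and 27.4 TPM in subcutaneous libraries. The groups overlapped, with pleural libraries 1 and 3 above all others. The difference for pleural against subcutaneous cells was 0.48 (SE 0.17, adjusted p = 0.237), not called in any of 11 alternative settings. Pleural library 3 was the highest of all sorted libraries for Ccn1, Ccn2 and Ankrd1 alike.

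Amotl2, an angiomotin that binds YAP and is itself induced by it, did not share the pleural pattern. In sorted cells it was at 16.9, 15.4, 16.0, 20.4 and 17.3 TPM in pleural libraries, 16.8, 7.49, 12.1, 11.6 and 6.30 TPM in peritoneal libraries and 18.8, 14.1, 18.1, 18.5 and 19.3 TPM in subcutaneous libraries. Peritoneal libraries 2 and 5 were lowest, as they were for Skil, and peritoneal library 1 lay within the range of the other sites. Amotl2 was called at -0.72 for peritoneal against subcutaneous cells (SE 0.19, adjusted p = 0.0251) and at 0.68 for pleural against peritoneal cells (SE 0.19, adjusted p = 0.0373). Each call held in 8 of 11 alternative settings. In the fits of the compared sites alone the adjusted p was 0.0679 for peritoneal against subcutaneous and 0.0827 for pleural against peritoneal cells. The peritoneal against subcutaneous call was also lost without subcutaneous libraries 1 and 2 (adjusted p = 0.0502), and the pleural against peritoneal call with array weights (0.42, adjusted p = 0.0503). Without peritoneal libraries 2 and 5 the differences stood at -0.38 (adjusted p = 0.107) and 0.33 (adjusted p = 0.150) and were not called. With 1 library left out, the peritoneal against subcutaneous call was lost without peritoneal 2 or subcutaneous 1, 3, 4 or 5 (adjusted p up to 0.0740). The pleural against peritoneal call was lost without peritoneal 2 or 5 or any 1 of the 5 pleural libraries (adjusted p up to 0.0989). In whole tumours Amotl2 lay between 20.6 and 31.0 TPM at all sites, and every difference was within 0.11.

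**Figure D4:**
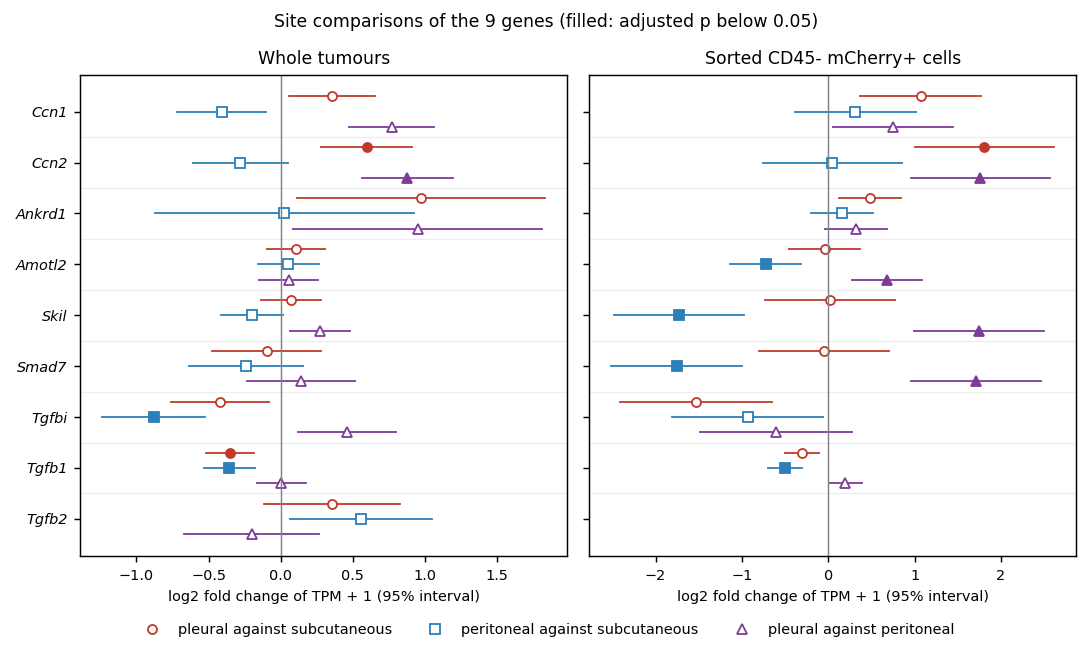
Log2 fold change of TPM + 1 with its 95% interval for each of the 9 genes in the 3 site comparisons, whole tumours on the left and sorted cells on the right; filled symbols had an adjusted p below 0.05. In sorted cells Skil and Smad7 lie near -1.7 for peritoneal against subcutaneous and near 1.7 for pleural against peritoneal, while Ccn2 departs from 0 in the pleural comparisons.

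Counted by comparison, the members' calls are set beside those of all tested genes. The members were chosen with earlier results known, so these counts are a description and not an independent test. In whole tumours pleural against subcutaneous gave 1 member higher of 9 (Ccn2), where 9.4% of genes were called higher, and 1 lower (Tgfb1), where 3.4% were called lower and 12.8% in either direction. No member separated these groups without overlap, and 7.76% of all genes did. Peritoneal against subcutaneous gave 2 lower of 9 (Tgfbi and Tgfb1), where 3.64% of genes were called lower, 8.52% higher and 12.2% in either direction. Tgfbi alone had no overlap there, as had 12.5% of genes. Pleural against peritoneal gave 1 higher of 9 (Ccn2), where 0.0266% of genes were called higher, 0.0266% lower and 0.0531% in either direction. In that comparison 3 members had no overlap (Ccn1, Ccn2 and Ankrd1), as had 1.14% of genes.

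In sorted cells pleural against subcutaneous gave 1 higher of 8 (Ccn2), where 0.397% of genes were called higher, 1.25% lower and 1.64% in either direction. Without overlap were 2 members (Ccn2 and Tgfb1) and 3.11% of genes. Peritoneal against subcutaneous gave 4 of 8, all lower (Skil, Smad7, Tgfb1 and Amotl2), where 6.33% of genes were called lower, 4.75% higher and 11.1% in either direction. Tgfb1 alone had no overlap there, as had 9.48% of genes. Pleural against peritoneal gave 4 of 8, all higher (Ccn2, Skil, Smad7 and Amotl2), where 4.45% of genes were called higher, 5.51% lower and 9.96% in either direction. Ccn2 and Skil had no overlap in that comparison, as had 9.57% of genes. Without peritoneal libraries 2 and 5 the members called there were 2, Ccn2 and Skil.

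Among 15 other early TGF-β target genes, 14 were tested in sorted cells, and 7 were lower and 0 higher in peritoneal than in subcutaneous cells, with a list median of -0.60 beside -0.03 for all tested genes. The share of all tested genes called there was 6.33% lower and 4.75% higher. Pmepa1, a membrane adaptor that sequesters SMADs, averaged 85.8 ± 26.5 TPM in peritoneal cells and 183 ± 38.2 TPM in subcutaneous cells (SD, n = 5 each; log2 difference -1.12, SE 0.20, adjusted p = 0.00328). Bhlhe40, a circadian and hypoxia-linked repressor, averaged 29.0 ± 16.4 TPM in peritoneal cells and 56.6 ± 13.3 TPM in subcutaneous cells (SD, n = 5 each; log2 difference -1.04, SE 0.29, adjusted p = 0.0286). Thbs1, encoding thrombospondin 1, an activator of latent TGF-β, differed by -1.03 (SE 0.31, adjusted p = 0.0434). The count was 4 without subcutaneous libraries 1 and 2 and 3 without peritoneal libraries 2 and 5. With a single library left out it was 3 without peritoneal 2, 3 without subcutaneous 1 and 4 without subcutaneous 3.

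Pleural against peritoneal sorted cells gave 4 of these 14 genes higher and 0 lower, with a list median of 0.42 beside 0.00 for all tested genes. The share of all tested genes called there was 4.45% higher and 5.51% lower. Thbs1 averaged 111 ± 28.8 TPM in pleural cells and 51.6 ± 25.0 TPM in peritoneal cells (SD, n = 5 each; 1.20 log2, SE 0.31, adjusted p = 0.0266), and Bhlhe40 differed by 1.20 (SE 0.29, adjusted p = 0.0190). Klf10, a zinc finger factor induced early by TGF-β, averaged 50.1 ± 6.28 TPM in pleural cells and 23.1 ± 8.49 TPM in peritoneal cells (SD, n = 5 each; 1.16 log2, SE 0.21, adjusted p = 0.00620). The count was 1 without peritoneal libraries 2 and 5 and 2 in the fit of those sites alone. With a single library left out it was 1 without peritoneal 2 and 2 without peritoneal 5, pleural 3 or pleural 5. In pleural against subcutaneous sorted cells limma called 0 of 14 genes, where 1.64% of all tested genes were called, and 4 of the 14 had an unadjusted p below 0.05.

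In whole tumours the list moved little: 2 of 15 genes were higher and 0 lower at each serosal site against the subcutaneous site, namely Smurf2, a ubiquitin ligase that works with SMAD7, and Cdkn2b, a cell cycle inhibitor. The share of all tested genes called higher was 9.4% for pleural and 8.52% for peritoneal tumours, so these counts were near it. Smurf2 averaged 27.4 ± 2.06 TPM in pleural tumours (n = 6) and 21.9 ± 2.01 TPM in subcutaneous tumours (SD, n = 5; 0.31 log2, SE 0.06, adjusted p = 0.00884).

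The receptors and SMADs were also lower in sorted peritoneal cells in part. Of 8 genes, 3 were lower and 0 higher against subcutaneous cells: Tgfbr1 (-0.89, SE 0.22, adjusted p = 0.0196) and Tgfbr2 (-1.05, SE 0.25, adjusted p = 0.0141), the signalling receptor pair, and Eng (-1.26, SE 0.20, adjusted p = 0.00102), a co-receptor best known from endothelium. The share of all tested genes called there was 6.33% lower and 4.75% higher. Endothelial markers moved the same way, with 5 of 8 listed and a sum of 3.25 to 11.5 TPM in peritoneal cells against 18.4 to 32.0 TPM in subcutaneous cells, and their part was not tested. The count was 1 without subcutaneous libraries 1 and 2, and 1 without peritoneal libraries 2 and 5. Eng was also lower in pleural than in subcutaneous cells (-0.90, SE 0.20, adjusted p = 0.0287), a call lost without subcutaneous libraries 1 and 2. Tgfbr1 was also higher in pleural than in peritoneal cells (0.73, SE 0.22, adjusted p = 0.0488).

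In whole tumours Smad3, which carries the TGF-β signal to DNA, was higher at both serosal sites, with 33.0 ± 6.43 TPM in pleural (n = 6) and 33.9 ± 5.77 TPM in peritoneal tumours (n = 5) against 22.1 ± 2.01 TPM in subcutaneous tumours (SD, n = 5). The differences were 0.54 for pleural (SE 0.13, adjusted p = 0.0174) and 0.58 for peritoneal tumours (SE 0.14, adjusted p = 0.0151). Tgfbr2 was lower in both comparisons, at -0.36 (SE 0.11, adjusted p = 0.0381) for pleural and -0.44 (SE 0.11, adjusted p = 0.0223) for peritoneal tumours. Of the 8 genes, 1 was called higher and 1 lower in each comparison. The share of all tested genes called was 12.8% for pleural and 12.2% for peritoneal tumours.

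Of the genes that store or activate the ligands, 2 of 8 tested were lower in peritoneal than in subcutaneous sorted cells: Lrrc32, the latent TGF-β anchor GARP (-1.20, SE 0.21, adjusted p = 0.00272), and Itgb8, a subunit of an activating integrin (-0.67, SE 0.21, adjusted p = 0.0477). The share of all tested genes called lower there was 6.33%. Lrrc32 was also the 1 gene of this list lower in pleural than in subcutaneous sorted cells (-1.07, SE 0.21, adjusted p = 0.0138), where 1.25% of all tested genes were lower. It reached 1 TPM in the 5 subcutaneous libraries and in no other, so it passed the filter through that group alone and is not tested when any 1 of them is left out. The peritoneal count of 2 was 0 under the filter of 5 TPM, 0 without subcutaneous 1, 3, 4 or 5, and 0 without subcutaneous libraries 1 and 2. It was 1 without subcutaneous 2, peritoneal 2 or pleural 3, 4 or 5, without peritoneal libraries 2 and 5, with array weights and in the fit of those sites alone. Itgb8 was higher in pleural whole tumours (0.55, SE 0.14, adjusted p = 0.0204), as was Tgfb3, the third ligand of the family (0.46, SE 0.11, adjusted p = 0.0170), which was higher in peritoneal tumours too (0.44, SE 0.12, adjusted p = 0.0253). Nrros, which anchors latent TGF-β on macrophages and microglia, was lower in peritoneal than in subcutaneous tumours (-0.47, SE 0.15, adjusted p = 0.0488). Of 9 genes of this list tested in whole tumours, 2 were called higher in pleural tumours, and 1 higher and 1 lower in peritoneal tumours. The share of all tested genes called was 12.8% for pleural and 12.2% for peritoneal tumours.

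Of 17 other YAP and TEAD target genes, 14 were tested in sorted cells, and 3 were lower and 1 higher in peritoneal than in subcutaneous cells. The share of all tested genes called there was 6.33% lower and 4.75% higher. Igfbp3, which encodes a carrier of insulin-like growth factors that TGF-β also induces, averaged 4.55 ± 1.36 TPM in pleural cells, 3.19 ± 2.45 TPM in peritoneal cells and 35.5 ± 8.54 TPM in subcutaneous cells (SD, n = 5 each). It was lower in both serosal groups without overlap, at -2.72 (SE 0.33, adjusted p = 0.000146) for pleural and -3.29 (SE 0.33, adjusted p = 1.52e-05) for peritoneal cells. Ccdc80, a matrix protein, was also lower in peritoneal cells (-1.39, SE 0.30, adjusted p = 0.00972), as was the kinase gene Nuak2 (-0.79, SE 0.22, adjusted p = 0.0346). Without peritoneal libraries 2 and 5 the list had 1 call. Myof, which encodes a membrane repair protein, was the 1 gene higher in peritoneal than in subcutaneous cells (0.32, SE 0.07, adjusted p = 0.0134). Pleural against peritoneal cells gave 1 gene higher, F3 (tissue factor; 1.15, SE 0.29, adjusted p = 0.0251), and 1 lower, Myof (-0.26, SE 0.07, adjusted p = 0.0395), where 4.45% of all tested genes were higher and 5.51% lower. That count of 2 was 0 without peritoneal libraries 2 and 5, 0 without peritoneal 2 alone and 0 without pleural 4, and it was 1 without peritoneal 5, subcutaneous 5 or any other 1 of the pleural libraries, with array weights, in the fit of those sites alone and after rescaling without mitochondrial, haemoglobin and antibody genes. Genes used as fibroblast and as smooth muscle and pericyte markers moved beside Igfbp3 and Ccdc80. Of 8 fibroblast markers, all listed, 3 were called lower in pleural and 4 in peritoneal than in subcutaneous cells (medians -0.47 for pleural and -0.67 for peritoneal), and they summed to 3207 to 4131 TPM in pleural and 2550.3 to 4395 TPM in peritoneal libraries, against 3554 to 6128 TPM in subcutaneous libraries. Of the 3 listed smooth muscle and pericyte markers, 1 was lower in pleural and 2 in peritoneal cells, with sums of 6.23 to 14.4 TPM in pleural and 4.13 to 14.1 TPM in peritoneal libraries, against 16.7 to 29.4 TPM in subcutaneous libraries. In whole tumours the fibroblast markers summed to 3545 to 6258 TPM in pleural, 3953 to 6503 TPM in peritoneal and 4724 to 6433 TPM in subcutaneous tumours. Whether their transcripts in the sorted libraries came from the cancer cells or from other cells was not tested. The part of all these markers in the results on Igfbp3 and Ccdc80 was not tested either. Of all tested genes, 1.25% were called lower in pleural and 6.33% in peritoneal than in subcutaneous sorted cells.

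In whole tumours 2 of these 17 genes were called in pleural against subcutaneous tumours, where 12.8% of all tested genes were, Ptpn14 higher (0.31, SE 0.08, adjusted p = 0.0179) and Igfbp3 lower (-0.96, SE 0.17, adjusted p = 0.00365). That count was 4 without pleural tumours 3 and 5 and 1 without subcutaneous tumour 2. Ptpn14 is a phosphatase that restrains YAP. Peritoneal against subcutaneous tumours gave 1 higher, F3 (0.41, SE 0.12, adjusted p = 0.0436), and 3 lower, among them Igfbp3 (-0.60, SE 0.18, adjusted p = 0.0400) and the receptor kinase gene Axl (-0.30, SE 0.09, adjusted p = 0.0403), where 8.52% of all tested genes were higher and 3.64% lower. That count of 4 was 0 to 2 without any 1 of the peritoneal or subcutaneous tumours. Of the other members of the CCN family, limma called 0 of 3 tested in whole tumours and 0 of 2 in sorted cells in every comparison, and the number with an unadjusted p below 0.05 was 1 in each comparison against subcutaneous samples and 0 between pleural and peritoneal samples.

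Of 8 factors, 7 were tested in sorted cells, and Wwtr1, which encodes TAZ, was the 1 called. It was lower in peritoneal than in subcutaneous cells, where 6.33% of all tested genes were lower. Wwtr1 was also higher in pleural than in peritoneal cells, where 4.45% were higher. Wwtr1 averaged 46.8 ± 6.92 TPM in pleural, 32.1 ± 6.56 TPM in peritoneal and 51.6 ± 5.42 TPM in subcutaneous cells (SD, n = 5 each). The differences were 0.54 for pleural against peritoneal cells (SE 0.14, adjusted p = 0.0253) and -0.68 for peritoneal against subcutaneous cells (SE 0.14, adjusted p = 0.00572). Yap1 was called only in whole tumours, where it averaged 34.1 ± 1.35 TPM in pleural (n = 6) and 34.4 ± 2.06 TPM in peritoneal tumours (n = 5) against 29.3 ± 0.761 TPM in subcutaneous tumours (SD, n = 5), a difference of 0.21 for pleural (SE 0.04, adjusted p = 0.00743) and 0.22 for peritoneal tumours (SE 0.04, adjusted p = 0.00645). Tead1, a DNA-binding partner of YAP, was higher in pleural than in subcutaneous tumours (0.32, SE 0.08, adjusted p = 0.0197). Vgll3, a competing TEAD cofactor, was lower in peritoneal than in subcutaneous tumours (-0.69, SE 0.21, adjusted p = 0.0468). In whole tumours 2 of the 8 factors were called at each serosal site against the subcutaneous site. The share of all tested genes called was 12.8% for pleural and 12.2% for peritoneal tumours.

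Immediate early genes, which answer serum, stress and tissue dissociation within minutes and to which Ccn1 itself belongs, moved beside the TGF-β genes in sorted cells. Of 12, all detected, 5 were lower in peritoneal than in subcutaneous cells and 4 higher in pleural than in peritoneal cells. The share of all tested genes called was 6.33% lower in the first comparison and 4.45% higher in the second. Egr2, a zinc finger factor, differed by -2.37 (SE 0.36, adjusted p = 0.000816) for peritoneal against subcutaneous cells, Fosb, an AP-1 subunit, by -1.91 (SE 0.36, adjusted p = 0.00393), and Ier3, a stress-induced survival factor, by -1.86 (SE 0.29, adjusted p = 0.000988). Pleural cells exceeded peritoneal cells by 1.76 in Egr2 (SE 0.36, adjusted p = 0.0106), by 1.69 in Ier3 (SE 0.29, adjusted p = 0.00475) and by 1.16 in the nuclear receptor gene Nr4a1 (SE 0.31, adjusted p = 0.0301). Without subcutaneous library 2 the counts were 9 and 8 in these comparisons. Their 12 summed levels ran from 6531 to 8037 TPM in pleural, 3364 to 6554 TPM in peritoneal and 3455 to 9753 TPM in subcutaneous libraries, with subcutaneous library 2 the low one of its group. Peritoneal library 3, the one with high Smad7, also had the highest sum of its group. The same 12 genes summed to 405 to 574 TPM in pleural, 383 to 461 TPM in peritoneal and 465 to 552 TPM in subcutaneous whole tumours. These were normalized separately, and the cause of the higher level in sorted cells was not tested. In whole tumours 3 of the 12 were lower in pleural and 4 in peritoneal against subcutaneous tumours, led by Egr2 at -0.46 (SE 0.13, adjusted p = 0.0294) for pleural and -0.66 (SE 0.13, adjusted p = 0.00693) for peritoneal tumours. The share of all tested genes called lower was 3.4% for pleural and 3.64% for peritoneal tumours. The part of the immediate early genes in the results on Skil, Smad7 and Ccn1 was not tested.

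**Figure D5:**
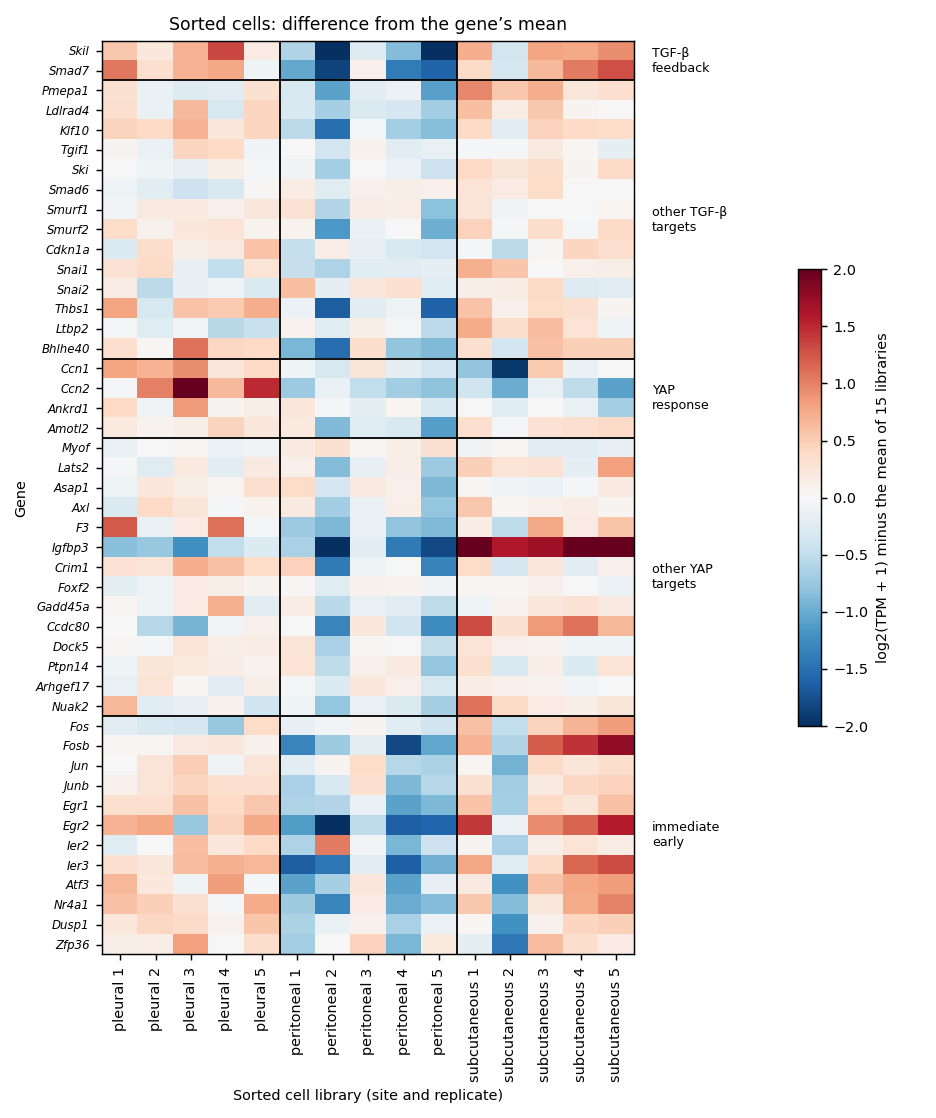
Difference of each gene's log2(TPM + 1) from its mean over the 15 sorted libraries (colour, in log2 units, cut off at 2 either way), with libraries in columns by site and tested genes in rows by list. Skil and Smad7 are blue in the peritoneal columns, most deeply in libraries 2 and 5, except that library 3 is pale, and Egr2 and Ier3 are blue in the peritoneal columns too, with library 3 the palest.

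How the members varied together differed between the tables. Over the 15 sorted libraries Pearson r of log2(TPM + 1) was 0.94 between Skil and Smad7 and 0.94 between Amotl2 and Skil, and after each site's mean was taken out it was 0.81 and 0.86. Ccn1 and Tgfbi ran in opposite directions (r = -0.86, and -0.80 within sites), with subcutaneous libraries 1 and 2 at both extremes. In the 16 whole tumours Ccn1 and Ccn2 were the most alike pair of members (r = 0.81), but within sites r was 0.46. These coefficients describe libraries that share a table and its normalization.

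Among all tested genes of the sorted table, those most like Skil were Zfp131, Dusp16 and Ndel1 (r of 0.97 to 0.98 over 15 libraries), and those most like Smad7 were Csrnp1, Hmgcs1 and Siah2 (r of 0.96 to 0.97). Ccn2 was most like Gm45716, Fstl3 and Gm15270 (r of 0.90 to 0.94), of which Gm15270 was also the gene most like Ccn2 in whole tumours (r = 0.90 over 16 libraries). Tgfbi was most like Ptpn18, Plekho1 and Gpsm3 (r of 0.95 to 0.96). Amotl2 was most like Trp53bp2, Il17ra and Cggbp1 (r of 0.96 to 0.97).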

How the data were processed

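Kallisto and the build GRCm39 are named in the submitters' processing notes; kallisto's version, the annotation and gene filter were not given in the sources used here. What the authors deposited is TPM per gene, so read depth is unknown and no counting interval could be given. Each whole tumour summed to 1000000 TPM and each sorted library to 996124 to 998055 TPM. From the sorted table, entries named by dates (17 of them) were left out.

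Values were tested as log2(TPM + 1) with limma 3.58.1 (R 4.3.3, intensity trend, the 3 sites of a table in 1 fit) for genes reaching 1 TPM in 5 or more libraries. P values were adjusted by Benjamini-Hochberg over all tested genes and called below 0.05. The fit was tested on simulated data. Named were all 9 members and, of each other pathway list, up to 3 called genes with the largest change per comparison; Nuak2, Wwtr1, Yap1 and the other called genes fall under that rule. The 3 genes most like a member have the highest Pearson r. One gene of the early TGF-β target list is not reported here. The members and lists were chosen with earlier results of these data known. Labels name mice but not separate batches. Same-numbered mice carry different names at each site, and r between their libraries ran from -0.38 to 0.35, so numbers were not used as pairs. Some peritoneal whole tumours carry a different number in the library name than in the title, and the title numbers were used. Other settings tried were a pseudocount of 0.1, no low-value filter or one of 5 TPM, other scalings, array weights, a replicate block, 2-site fits and leaving out libraries.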

Additional observations from a re-analysis of the deposited data

Results flagged for a closer look

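In 8 of 51 groups of libraries 1 library lay further from the rest than Dixon's 95% limit allows, and chance alone flags about 1 in 20 groups. Pleural whole tumour 3 was high for Ankrd1 (479.6 TPM, the others 58.6 to 69.5 TPM) and for Smad7 (12.1 TPM, the others 4.30 to 7.13 TPM). Subcutaneous whole tumour 4 was high for Smad7 at 7.57 TPM, in a group whose others lay between 6.88 and 6.99 TPM. Pleural whole tumour 5 was high for Tgfb1 (77.5 TPM, the others 57.5 to 62.4 TPM). Subcutaneous whole tumour 2 was high for Tgfb2 (1.21 TPM, the others 0.367 to 0.499 TPM). Sorted subcutaneous library 2 was low for Amotl2 (14.1 TPM, the others 18.1 to 19.3 TPM) and for Skil (19.9 TPM, the others 43.7 to 50.7 TPM). Sorted peritoneal library 3 was high for Smad7 (12.7 TPM, the others 2.55 to 5.33 TPM).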

How the results depend on the processing

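Of 1321 values of single members under other settings, 1214 kept direction and side of the threshold, 46 lost the call, 17 gained one and 44 changed sign; every sign change was in a difference that was not called. TPM keeps no read depth, so what depth limits is unknown. The planned permutation test for members under the filter had no case, since every listed member passed it, and Tgfb2 had no value under the filter of 5 TPM. Leaving out the libraries that stood apart was chosen after seeing the data. The cause of the changes below was not tested.

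Members called in whole tumours, for pleural against subcutaneous (2), were 4 without pleural tumours 3 and 5 and 1 to 4 with 1 tumour left out. For peritoneal against subcutaneous they were 2, and 2 to 3 with 1 tumour left out. For pleural against peritoneal the 1 member was 0 with a pseudocount of 0.1, without a filter, with the filter of 5 TPM, under median-of-ratios scaling, after rescaling without mitochondrial, haemoglobin and antibody genes, with array weights, without pleural tumours 3 and 5, and 0 to 2 with 1 tumour left out. In sorted cells the 1 member for pleural against subcutaneous was 2 with array weights, 0 in the fit of 2 sites, 0 without subcutaneous libraries 1 and 2, and 0 to 2 with 1 left out. The 4 members for peritoneal against subcutaneous were 3 to 4 with 1 left out. The 4 for pleural against peritoneal were 2 without peritoneal libraries 2 and 5 and 3 to 5 with 1 left out.

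Genes called in whole tumours for pleural against subcutaneous (1927) were 1136 without a filter and 748 to 2226 with 1 tumour left out. For peritoneal against subcutaneous (1831) they were 1164 without a filter and 896 to 2178. For pleural against peritoneal (8) they were 0 with the pseudocount of 0.1, 0 with the 5 TPM filter, 4 under median-of-ratios scaling, 21 without pleural tumours 3 and 5, and 0 to 33. In sorted cells, pleural against subcutaneous (203) gave 107 with the 5 TPM filter, 406 with array weights, 70 without subcutaneous libraries 1 and 2, and 118 to 268. Peritoneal against subcutaneous (1369) gave 2486 under quantile normalization, 741 without peritoneal libraries 2 and 5, and 752 to 1610. Pleural against peritoneal (1231) gave 1932 under median-of-ratios scaling, 2229 under quantile normalization, 696 in the fit of 2 sites, 485 without peritoneal libraries 2 and 5, and 528 to 1420.

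The replicate numbers do not pair the animals. With a replicate block, whole tumour calls were 849 for pleural against subcutaneous, 656 for peritoneal against subcutaneous and 0 for pleural against peritoneal, and members called were 1 for peritoneal against subcutaneous, where Tgfb1 had an adjusted p of 0.0532, and 0 for pleural against peritoneal, where Ccn2 had 0.124. The block changed no other call of a member.

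Sign changes in whole tumours were these. Skil for pleural against subcutaneous became -0.012 under median-of-ratios scaling, -0.016 under quantile normalization, -0.0036 with array weights and -0.017 without pleural tumours 3 and 5, and ran from -0.0037 to 0.11 with 1 tumour left out. Smad7 in that comparison ran from -0.26 to 0.0029. For peritoneal against subcutaneous, Ankrd1 became -0.054 and Amotl2 -0.024 under median-of-ratios scaling, and -0.029 and -0.017 under quantile normalization; Ankrd1 ran from -0.028 to 0.12 with 1 left out. For pleural against peritoneal, Tgfb1 became -0.0039 under median-of-ratios scaling, -0.017 under quantile normalization, -0.029 with array weights, -0.030 with the replicate block and -0.063 without pleural tumours 3 and 5, which also gave -0.046 for Amotl2 and -0.054 for Smad7. With 1 tumour left out, Tgfb1 ran from -0.059 to 0.060, Amotl2 from -0.0078 to 0.099 and Smad7 from -0.018 to 0.24.

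In sorted cells, for pleural against subcutaneous, Smad7 became 0.0040 under quantile normalization and ran from -0.28 to 0.12 with 1 left out, and Skil became -0.11 with array weights and -0.24 without subcutaneous libraries 1 and 2, and ran from -0.22 to 0.12. For peritoneal against subcutaneous, Ccn2 became -0.064 with array weights, -0.00063 without subcutaneous libraries 1 and 2 and -0.021 without peritoneal libraries 2 and 5, and ran from -0.065 to 0.17. Ccn1 became -0.28 without subcutaneous libraries 1 and 2 and ran from -0.049 to 0.56.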
